A study of Mus musculus with 9 samples.

Results

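The genes *Cdkn1a*, *Cdk4*, *Ccnd2* and *Cdc25a*, which act on entry into G1 and S phase, were followed across skeletal stem and stromal cells before and after bone transplantation. They were chosen by name and are 4 of the 8329 genes in the expression table, and all 4 passed the filter on low values. RNA had been sequenced from cells sorted as CD45-Ter119-CD31-CD51+CD200+, with 3 libraries in each of 3 groups of WT C57BL/6J mice. BM-MSCs, the mesenchymal stem cells of the bone marrow, and P-SSCs, the skeletal stem cells of the periosteum (the membrane that covers the bone), were taken at day 0, from mice whose bones had not been transplanted. Graft P-SSCs were sorted from the periosteum of a femur at day 3 after the intact bone had been placed under the skin of a non-conditioned recipient matched for age and sex. Graft P-SSCs were therefore compared with P-SSCs of untouched bones, and no group of bones that were cut out but not grafted was analysed here, so surgery and engraftment cannot be told apart. Periosteum and marrow were also digested for different times. Each library held RNA of different mice. The labels of replicate 2 of the BM-MSCs and of the P-SSCs join 2 sample names, which was read here as a pool. The 3 comparisons ask how the G1 regulators differed between periosteal and marrow cells at rest, and what their levels were early after transplantation.

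A cell leaves quiescence when D-type cyclins bind CDK4 or CDK6 and the complex begins to phosphorylate the retinoblastoma protein, which frees E2F transcription factors to turn on the genes of S phase. *Ccnd2* encodes cyclin D2, *Cdk4* its kinase partner, and *Cdkn1a* the CDK inhibitor p21, which p53 induces and which holds stem cells of several tissues in a resting state. *Cdc25a* encodes a phosphatase that removes inhibitory phosphates from CDKs and is itself an E2F target. p21 also takes part in the assembly of cyclin D and CDK4, so that its transcript level alone does not give the activity of the kinase.

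The values are FPKM, the fragments mapped to a gene scaled by the mean length of the annotated transcripts of the gene and by the total of the library. Levels of different genes are thus per length, and how they compare depends on the length chosen. The totals ranged from 16890241 to 21315438 fragments. *Cdkn1a*, *Cdk4* and *Ccnd2* were read from at least 1458 fragments in every library, which leaves a counting error of at most 2.62%. *Cdc25a* was read from 21 to 456 fragments, and its lowest library, with 21, has a counting error of 21.8%. Blood transcripts set the marrow libraries apart. Of 26 blood marker genes 8 were in the table, and their summed level was 1165 to 2817 FPKM in BM-MSCs, 16.6 to 79.4 FPKM in P-SSCs and 35.4 to 92.1 FPKM in graft P-SSCs. Of these 8, 5 were at 0 in all P-SSC libraries, among them *Ptprc*, the gene for CD45. *Hba-a2* and *Lyz2* made up most of the sum in BM-MSCs, and single markers did not all follow it. Of the periosteal markers, *Postn* and *Cilp* were in the table, with a sum of 90.7 to 124.7 FPKM in BM-MSCs, 739.1 to 802.4 in P-SSCs and 904.3 to 1036 in graft P-SSCs. These 2 markers moved in opposite directions after grafting. *Postn* rose from 390.5 to 476.4 FPKM in P-SSCs to between 782.2 and 879.1 FPKM in graft P-SSCs (limma adjusted p = 0.00156), and *Cilp* fell from 262.7 to 381.3 FPKM to between 122.1 and 156.7 FPKM (limma adjusted p = 0.000974). The markers of the sort, of marrow stroma and of endothelium were not analysed here. P-SSC replicate 3 stood apart from the other P-SSC libraries, and values of the 4 genes are also given without it.

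The promoters of these genes are shown because *Cdkn1a*, *Cdk4* and *Cdc25a* each hold a different motif of the pathway near a start site. Each window runs from 250 bases before to 50 bases after a RefSeq start (GRCm38.p6, all on the + strand), and 3 of the 4 genes had one. Capitals mark the motifs that were searched on both strands: the full p53 site of 20 bases without a spacer and with at most 1 mismatch, a tolerance chosen after a stricter search had been seen, the E-box CACGTG bound by MYC among others, and the E2F motifs TTTCCCGC, TTTCGCGC, TTTGCCGC and TTTGGCGC. *Cdkn1a* has 2 windows, the upstream one at chr17:29090729-29091028 and the downstream one at chr17:29093519-29093818. The windows of *Cdk4* and *Cdc25a* are at chr10:127063285-127063584 and chr9:109875329-109875628.
Cdkn1a, upstream start: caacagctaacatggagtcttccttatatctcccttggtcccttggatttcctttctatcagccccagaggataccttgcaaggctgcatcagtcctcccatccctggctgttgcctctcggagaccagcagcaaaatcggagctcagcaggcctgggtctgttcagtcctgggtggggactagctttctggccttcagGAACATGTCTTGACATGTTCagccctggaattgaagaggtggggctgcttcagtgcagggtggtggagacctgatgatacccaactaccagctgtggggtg
Cdkn1a, downstream start: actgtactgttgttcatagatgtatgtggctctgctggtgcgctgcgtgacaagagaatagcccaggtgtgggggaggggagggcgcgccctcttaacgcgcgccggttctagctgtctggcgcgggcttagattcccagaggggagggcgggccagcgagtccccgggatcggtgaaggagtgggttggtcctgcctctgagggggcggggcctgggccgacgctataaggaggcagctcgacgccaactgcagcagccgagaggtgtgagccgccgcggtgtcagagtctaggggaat
Cdk4: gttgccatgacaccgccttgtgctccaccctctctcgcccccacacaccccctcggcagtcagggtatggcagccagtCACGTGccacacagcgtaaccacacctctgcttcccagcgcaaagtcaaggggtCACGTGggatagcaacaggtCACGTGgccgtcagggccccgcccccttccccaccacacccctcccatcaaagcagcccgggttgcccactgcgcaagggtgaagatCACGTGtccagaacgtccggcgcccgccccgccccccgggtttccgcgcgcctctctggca
Cdc25a: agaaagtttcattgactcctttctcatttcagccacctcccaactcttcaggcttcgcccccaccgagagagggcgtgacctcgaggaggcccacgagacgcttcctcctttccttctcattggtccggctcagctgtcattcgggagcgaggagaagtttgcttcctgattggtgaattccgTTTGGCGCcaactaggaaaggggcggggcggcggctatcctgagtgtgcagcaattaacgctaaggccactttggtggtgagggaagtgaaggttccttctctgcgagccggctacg

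The upstream window of *Cdkn1a* holds 1 p53 site, whose first base lies at position -51 from the start, and 29 of all 32851 promoter windows of this length (0.0883%) hold such a site. The tolerance was chosen after a stricter search had been seen, so this share does not measure how unexpected the site is. The downstream window of *Cdkn1a* holds none of the 3 motifs. *Cdk4* has 4 E-boxes, at positions -172, -118, -98 and -11. At least 1 E-box was found in 2349 windows (7.15%) and at least 4 in 8 windows (0.0244%). *Cdc25a* has 1 E2F motif, TTTGGCGC at position -67, and 744 windows (2.26%) hold one of the 4 E2F motifs. These matches describe the letters of the windows, and binding was not measured in these cells.

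*Cdkn1a* was higher in each P-SSC library than in any other library. Its gene (ENSMUSG00000023067, chr17:29090976-29100727, GRCm38, + strand) has 5 annotated transcripts. *Cdkn1a* stood at 342.0, 248.6 and 175.6 FPKM in P-SSC replicates 1, 2 and 3. In BM-MSCs it stood at 70.3, 89.9 and 104.9 FPKM, and in graft P-SSCs at 90.4, 75.3 and 84.8 FPKM. The lowest P-SSC library, replicate 3, lay 1.67-fold above the highest BM-MSC library, and the BM-MSC and graft P-SSC libraries overlapped throughout. The 3 graft libraries were close together (83.5 ± 7.63 FPKM, SD, n = 3), and the P-SSC libraries spread widely (255.4 ± 83.4 FPKM, SD, n = 3).

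*Cdk4* ran in the opposite order. Its gene (ENSMUSG00000006728, chr10:127063534-127067920, + strand) has 9 annotated transcripts and was the most highly expressed of the 4 genes in all BM-MSC and graft P-SSC libraries. *Cdk4* stood at 423.0, 441.4 and 470.9 FPKM in graft P-SSCs and at 206.7, 232.2 and 180.1 FPKM in P-SSCs. In BM-MSCs it stood at 269.7, 241.1 and 304.1 FPKM. The groups did not overlap, with graft P-SSCs highest and P-SSCs lowest. Such separation was common over all genes tested. It was found for 50.6% of them between graft P-SSCs and P-SSCs and for 32.1% between P-SSCs and BM-MSCs. Between graft P-SSCs and BM-MSCs it was found for 64.5%. The same shares stand beside the separations of *Cdkn1a* and *Cdc25a*. The closest libraries of neighbouring groups were P-SSC replicate 2 and BM-MSC replicate 2, which lay only 1.04-fold apart.

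*Ccnd2* followed *Cdkn1a* rather than its kinase partner. Its gene (ENSMUSG00000000184, chr6:127125162-127152193, - strand) has 8 annotated transcripts. *Ccnd2* stood at 116.8, 90.5 and 109.2 FPKM in P-SSCs and at 75.7, 60.9 and 67.8 FPKM in graft P-SSCs. In BM-MSCs it stood at 58.7, 47.3 and 56.6 FPKM. All P-SSC libraries lay above all graft P-SSC libraries, and these lay above all BM-MSC libraries by a narrow margin of 1.04-fold between the closest pair. The libraries did not overlap for 50.6% and 64.5% of all genes tested in these comparisons, in that order.

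*Cdc25a* was expressed at a far lower level than the other 3 genes. Its gene (ENSMUSG00000032477, chr9:109875579-109893895, + strand) has 7 annotated transcripts. *Cdc25a* stood at 8.87, 11.9 and 7.03 FPKM in graft P-SSCs, and at 0.591, 1.25 and 3.69 FPKM in P-SSCs. In BM-MSCs it stood at 2.07, 2.13 and 2.01 FPKM, which is the tightest set of values for any of the 4 genes, relative to its mean. The graft libraries lay above all others, while the P-SSC libraries fell on both sides of the BM-MSC libraries.

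**Figure D1:**
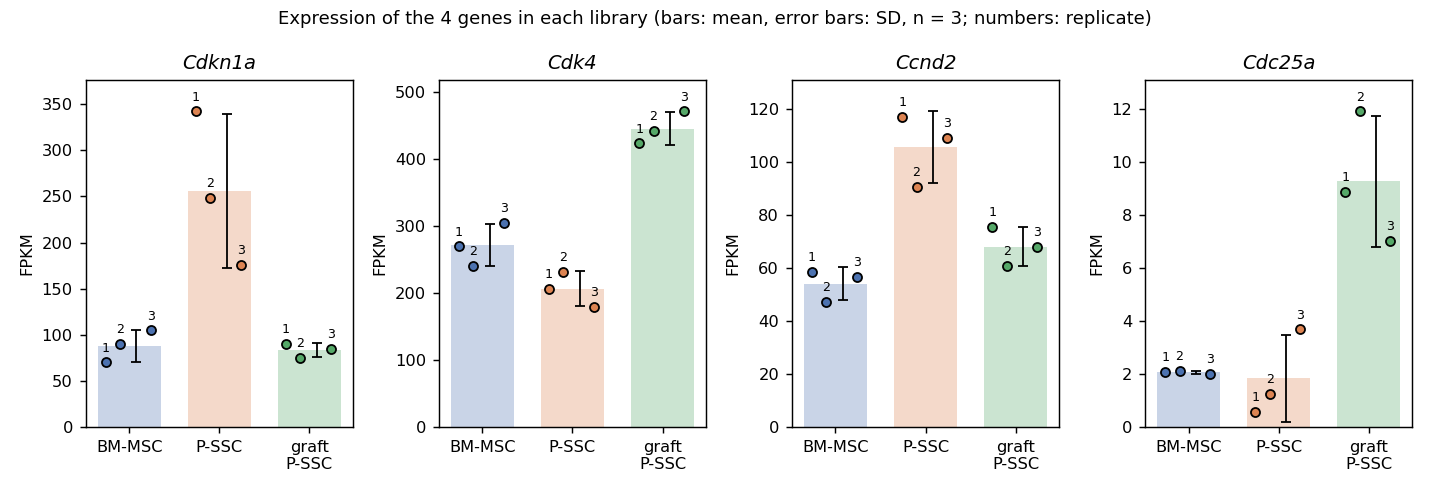
FPKM of *Cdkn1a*, *Cdk4*, *Ccnd2* and *Cdc25a* in each library of BM-MSCs, P-SSCs and graft P-SSCs (points, numbered by replicate, with bars for the mean and error bars for the SD, n = 3). *Cdkn1a* and *Ccnd2* were highest in P-SSCs, while *Cdk4* and *Cdc25a* were highest in graft P-SSCs.

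Between graft P-SSCs and P-SSCs all 4 genes changed, *Cdkn1a* and *Ccnd2* downwards and *Cdk4* and *Cdc25a* upwards. *Cdkn1a* was 3.06-fold lower on average in graft P-SSCs, and *Cdc25a* was 5.03-fold higher. Groups were compared with limma on log2(FPKM + 1) over 1948 genes with Benjamini-Hochberg adjustment, and a gene was called at an adjusted p under 0.05. On this scale *Cdkn1a* fell by 1.55 (standard error 0.25, adjusted p = 0.00117 from limma). *Cdk4* was higher by 1.11 ± 0.15 (standard error, limma adjusted p = 0.000448), a 2.16-fold change of the mean FPKM. *Ccnd2* fell by 0.62 (standard error 0.17, adjusted p = 0.0193 from limma), a 1.55-fold change. *Cdc25a* was higher by 1.98 ± 0.41 (standard error, limma adjusted p = 0.00491). The addition of 1 FPKM makes the log2 differences of genes with low levels smaller than their fold changes, and with 0.1 FPKM added in its place *Cdc25a* was higher by 2.59.

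Changes of this kind were common. Of all genes tested 34.1% were called between graft P-SSCs and P-SSCs, 22.6% as higher and 11.5% as lower, and the libraries of these groups did not overlap for 50.6% of genes. The scaling of the libraries moved this balance, since 441 genes were higher and 224 lower as deposited, 312 and 302 after median-of-ratios scaling and 312 and 355 after quantile normalization. The median difference of all genes was 0.26, and relative to it *Cdkn1a* lay at -1.81, *Ccnd2* at -0.88, *Cdk4* at 0.85 and *Cdc25a* at 1.71. The direction and the call of each of the 4 genes were the same under both other scalings. Permuting the 3 libraries of each group gave an exact two-sided p of 0.10 for each of the 4 genes, the smallest value this design allows. The call of *Ccnd2* was lost when P-SSC replicate 1 was left out (adjusted p = 0.0722 from limma), and likewise without graft P-SSC replicate 2 (0.0889) or replicate 3 (0.0654). RNA was measured in bulk, so that a smaller share of cells with a transcript and less of it in each cell cannot be told apart. Some macrophage and leukocyte transcripts moved as well. *Csf1r*, the receptor for colony-stimulating factor 1, stood at 0.248 to 0.835 FPKM in P-SSCs and 5.57 to 6.31 FPKM in graft P-SSCs (limma adjusted p = 0.00431), and *Ptprc*, too low to be tested, stood at 0 and at 0.113 to 0.311 FPKM. *Adgre1*, the gene for F4/80, had a log2 difference of 1.51 (limma adjusted p = 0.0413). It is in none of the marker lists and was named after its values were seen, so its p-value is a description only. The summed myeloid markers overlapped, with 14.5 to 72.3 FPKM in P-SSCs and 32.4 to 91.3 FPKM in graft P-SSCs. *Lyz2* did not pass the test (limma adjusted p = 0.759). The part of such cells in the changes of the 4 genes was not tested.

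P-SSC replicate 3 bears on this comparison, because it lay nearer to the graft libraries than the other P-SSC libraries did for *Cdkn1a* and *Cdc25a*. Its *Cdkn1a* level was 175.6 FPKM, against a mean of 295.3 FPKM in replicates 1 and 2. Its *Cdc25a* level was 3.69 FPKM against a mean of 0.922 FPKM. For *Cdk4* it was the lowest P-SSC library, with 180.1 FPKM against 219.5, and so the farthest from the graft. *Ccnd2* hardly differed, with 109.2 FPKM against 103.7. Without this library *Cdkn1a* fell by 1.80 on the log2 scale (adjusted p = 9.41e-05 from limma) and *Cdc25a* rose by 2.41 (adjusted p = 0.000202). *Cdk4* then rose by 1.02 (adjusted p = 0.000285) and *Ccnd2* fell by 0.59 (adjusted p = 0.0235).

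At rest, P-SSCs had more *Cdkn1a* and more *Ccnd2* transcript than BM-MSCs. *Cdkn1a* was 2.89-fold higher, a log2 difference of 1.49 (standard error 0.25, adjusted p = 0.00153 from limma). *Ccnd2* was 1.95-fold higher, a log2 difference of 0.95 (standard error 0.17, adjusted p = 0.00249 from limma). Of all genes tested 24.2% were called between P-SSCs and BM-MSCs, 9.8% as higher and 14.4% as lower, and 2 of the 4 genes were called as higher. The median difference of all genes was -0.06. *Cdk4* had a log2 difference of -0.40 (95% confidence interval -0.73 to -0.06), which did not pass the test (adjusted p = 0.0848 from limma), although each P-SSC library lay below each BM-MSC library, as the groups failed to overlap for 32.1% of genes. Without P-SSC replicate 2 it passed, with a log2 difference of -0.48 (adjusted p = 0.0454 from limma). *Cdc25a* had a log2 difference of -0.26 (95% confidence interval -1.18 to 0.66, adjusted p = 0.708 from limma), an interval too wide to place its level in P-SSCs above or below that in BM-MSCs. Without P-SSC replicate 3, *Cdkn1a* and *Ccnd2* had log2 differences of 1.73 and 0.92 (adjusted p = 0.000174 and 0.00397 from limma), *Cdk4* had -0.30 (adjusted p = 0.142) and *Cdc25a* -0.70 (adjusted p = 0.131). The summed blood markers were higher in every BM-MSC library than in any P-SSC library, and their part in these differences was not tested.

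Set against BM-MSCs, graft P-SSCs had more *Cdk4* and *Cdc25a* transcript. *Cdk4* was 1.64-fold higher, a log2 difference of 0.72 (standard error 0.15, adjusted p = 0.00430 from limma), and *Cdc25a* 4.47-fold higher, a log2 difference of 1.71 (standard error 0.41, adjusted p = 0.00880 from limma). Of all genes tested 41.9% were called in this comparison, 25.7% as higher and 16.2% as lower, and the median difference was 0.28. As deposited 501 genes were higher and 315 lower, against 388 and 365 after median-of-ratios scaling and 387 and 405 after quantile normalization. The call of *Cdk4* depended on the scaling. After median-of-ratios scaling its log2 difference was 0.47 with an adjusted p of 0.0858 from limma, and after quantile normalization it was 0.70 (adjusted p = 0.00139). *Cdkn1a* had a log2 difference of -0.07 (95% confidence interval -0.62 to 0.49, adjusted p = 0.845 from limma), an interval that leaves room for a difference in either direction. *Ccnd2* had a log2 difference of 0.33 (95% confidence interval -0.06 to 0.71, adjusted p = 0.152 from limma), with each graft library above each BM-MSC library, as the groups failed to overlap for 64.5% of genes. Blood transcripts differed between these groups as well, and their part was not tested. The 3 comparisons share groups, so that a high level in P-SSCs, such as that of *Cdkn1a*, enters both comparisons that involve P-SSCs.

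**Figure D2:**
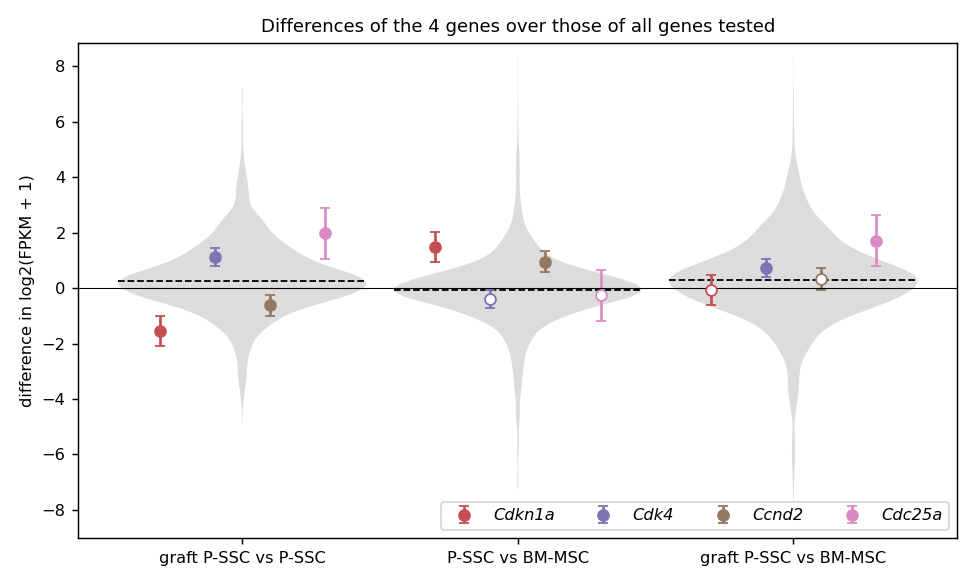
Differences in log2(FPKM + 1) of the 4 genes (points, filled where the limma adjusted p was under 0.05, with 95% confidence intervals) over the distribution of all 1948 genes tested (grey, dashed line at the median). All 4 genes were called between graft P-SSCs and P-SSCs, where 34.1% of all genes tested were called. Between P-SSCs and BM-MSCs 2 of the 4 were called, against 24.2% of all genes. Between graft P-SSCs and BM-MSCs 2 of the 4 were called, against 41.9% of all genes.

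The balance between the kinase and its inhibitor was read within each library, where the scaling between libraries cancels. The ratio of *Cdk4* to *Cdkn1a* was lowest in P-SSCs, with 0.604 to 1.03 FPKM of *Cdk4* for each FPKM of *Cdkn1a*, a level that depends on the transcript lengths used (0.503 to 0.853 with the gene length listed in the table). The ratio was 2.68 to 3.83 in BM-MSCs and 4.68 to 5.86 in graft P-SSCs. The 3 groups did not overlap, and P-SSC replicate 3 had the highest ratio of its group, with 0.934 in the next library. On the log2 scale, after the addition of 1 FPKM, the mean ratio was -0.26 ± 0.41 in P-SSCs, 1.62 ± 0.27 in BM-MSCs and 2.40 ± 0.17 in graft P-SSCs (SD, n = 3 each). Graft P-SSCs thus differed from P-SSCs by 2.66, a 6.34-fold difference (2.81 on the log2 scale without P-SSC replicate 3), and from BM-MSCs by 0.78, a 1.72-fold difference. Each of the 3 comparisons gave p = 0.10 in the exact two-sided permutation test, the smallest possible.

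The ratio of *Cdk4* to *Ccnd2*, kinase to cyclin, was 1.65 to 2.57 in P-SSCs, 4.60 to 5.37 in BM-MSCs and 5.59 to 7.25 in graft P-SSCs. These groups did not overlap either. The ratio of *Ccnd2* to *Cdkn1a* varied less, from 0.342 to 0.622 in P-SSCs, from 0.526 to 0.835 in BM-MSCs and from 0.800 to 0.837 in graft P-SSCs. P-SSC replicate 3 was the library with 0.622, and BM-MSC replicate 1 the one with 0.835.

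**Figure D3:**
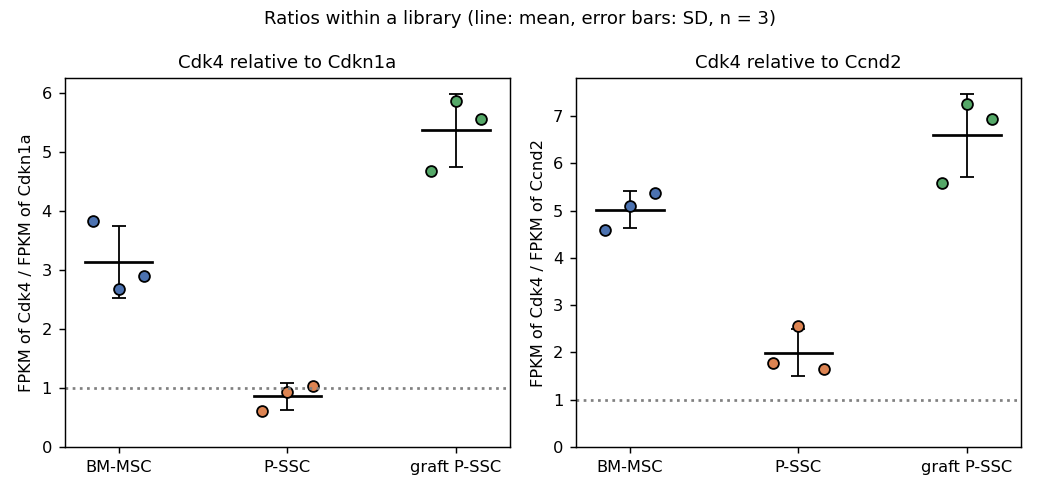
FPKM of *Cdk4* divided by FPKM of *Cdkn1a* (left) and of *Ccnd2* (right) in each library (points), with the mean (line) and SD (error bars, n = 3), and a dotted line at equal levels. The *Cdk4* to *Cdkn1a* ratio was 0.604 to 1.03 in P-SSCs and 4.68 to 5.86 in graft P-SSCs.

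The wider G1 network was described with 7 lists of genes, 120 in all, of which 22 were in the table and 20 were tested. The other genes of the lists were not analysed here, among them *Ccnd1*, *Ccnd3*, *Cdkn1b*, *Cdkn1c* and *Rb1*. Leaving aside the 4 genes themselves, 11 of 16 rose and 1 fell between P-SSCs and graft P-SSCs, with a median log2 difference of 1.64 against 0.26 for all genes, of which 22.6% rose and 11.5% fell. Without P-SSC replicate 3, 10 rose and 2 fell, where 637 of all 1948 genes rose and 255 fell. The counts were lowest without graft P-SSC replicate 1, or without replicate 3, when 7 rose and 1 fell each time. Of all genes, 301 rose and 149 fell without graft P-SSC replicate 1. Quantile normalization gave 7 and 2, where 312 of all genes rose and 355 fell. Between P-SSCs and BM-MSCs 0 of the 16 were called as higher and 6 as lower, against 9.8% and 14.4% of all genes, with a median of -0.55 against -0.06. In a fit of these 6 libraries alone 3 were called as lower, against 190 of all 1948 genes. Without BM-MSC replicate 3 there were 4 against 243 of all genes, and without P-SSC replicate 3 there were 7 against 383. Without BM-MSC replicate 2, 1 was called as higher and 7 as lower, against 164 and 272 of all genes. *E2f2*, 1 of the 6, reached 1 FPKM in the 3 BM-MSC libraries only, so that it passed the filter through the group in which it is high and is no support for the count. Between graft P-SSCs and BM-MSCs 8 were higher and 2 lower, against 25.7% and 16.2% of all genes, with a median of 0.72 against 0.28. *E2f2* is also 1 of these 2 lower genes, and for the same reason it is no support for this count. With 1 BM-MSC or graft P-SSC library left out 6 to 8 were higher and 1 was lower. Without P-SSC replicate 3, 8 were higher and 3 lower, where 667 of all genes were higher and 371 lower.

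Among the inhibitors, *Cdkn2c* moved against *Cdkn1a*. *Cdkn2c* encodes p18, an inhibitor of CDK4 and CDK6, and stood at 19.5, 21.2 and 16.4 FPKM in graft P-SSCs and at 5.10, 3.65 and 5.44 FPKM in P-SSCs. It rose by 1.81 on the log2 scale in graft P-SSCs (adjusted p = 0.000777 from limma), so that one CDK inhibitor fell and another rose in the same libraries. *Cdkn2a* was under the filter in all 9 libraries. Of the other cyclins and kinases, *Cdk6*, the second partner of D-type cyclins, and *Ccnc*, the gene for cyclin C, were higher in graft P-SSCs by 1.54 and 1.02 (adjusted p = 0.0192 and 0.0344 from limma). *Cdk6* had a low level, and its difference was 2.86 with 0.1 FPKM added.

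*Fzr1*, which encodes the activator of the anaphase-promoting complex that degrades CDC25A protein, rose with *Cdc25a*. It stood at 95.2, 84.3 and 82.9 FPKM in graft P-SSCs and at 3.88, 1.42 and 35.0 FPKM in P-SSCs, where replicate 3 was again the highest. The log2 difference was 3.55 ± 0.78 (standard error, limma adjusted p = 0.00691). Without P-SSC replicate 3 it was 4.68 (adjusted p = 3.48e-06), and without P-SSC replicate 2 it was 2.73 (adjusted p = 0.0172). Among the genes of the RB, E2F and DREAM list, *Tfdp1*, the DNA-binding partner of E2F proteins, rose by 2.33 (adjusted p = 0.00152) and *Foxm1*, a transcription factor of the later cell cycle, by 4.99 (adjusted p = 2.63e-06). *Foxm1* had 0.198 ± 0.190 FPKM in P-SSCs, 2.94 ± 0.363 in BM-MSCs and 36.9 ± 4.68 in graft P-SSCs (SD, n = 3 each), and its difference between graft P-SSCs and P-SSCs was 7.15 with 0.1 FPKM added and 7.88 with limma-voom on fragments. *E2f7*, a repressive E2F, was higher by 1.73 (adjusted p = 0.0237 from limma), while *E2f2* and *Rbbp4* did not pass the test.

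The 3 genes of S phase that were tested, *Mcm5* and *Mcm6* of the replicative helicase and *Cdt1*, which loads it, rose in graft P-SSCs by 4.15, 3.83 and 3.76 on the log2 scale (adjusted p = 0.000187, 0.000212 and 0.000172 from limma). In P-SSCs they were lower than in BM-MSCs by log2 differences of -2.81, -1.95 and -1.91 (adjusted p = 0.00165, 0.00974 and 0.00832 from limma), and in a fit of these 6 libraries alone *Cdt1* lost the call (adjusted p = 0.0513). Among the BM-MSC and P-SSC libraries, BM-MSC replicate 3 had the highest levels of all 3, with 110.5 FPKM of *Mcm5*, 78.1 FPKM of *Mcm6* and 14.4 FPKM of *Cdt1*. BM-MSC replicate 3 also had the highest level of the blood marker *Hba-a2* (2200.5 FPKM, against 748.4 and 617.9 in replicates 1 and 2). Without that library the log2 differences of *Mcm5*, *Mcm6* and *Cdt1* were -2.27, -1.41 and -1.58 (adjusted p = 0.00368, 0.0167 and 0.0316 from limma). The part of blood cells in these differences was not tested. P-SSCs therefore held the highest *Cdkn1a* and *Ccnd2* and the lowest *Mcm5*, *Mcm6* and *Cdt1* group means of the 3 groups. *Id3*, which encodes an inhibitor of basic helix-loop-helix transcription factors, was the 1 gene of these lists besides *Cdkn1a* and *Ccnd2* to fall in graft P-SSCs, by 1.65 (adjusted p = 0.00148 from limma), from 1615 ± 649.7 FPKM to 485.0 ± 50.2 FPKM (SD, n = 3). *Bax*, a pro-apoptotic p53 target and the only gene of the p53 list to be tested, was higher by 0.49 (adjusted p = 0.0451 from limma), and the other genes of that list were not analysed here.

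The calls of *Cdk6*, *Ccnc*, *E2f7* and *Bax* were lost under 4, 8, 8 and 13 of 18 alternatives. Without graft P-SSC replicate 1, and also without replicate 3, none of these 4 genes was called, with adjusted p-values from 0.0546 to 0.130 from limma. *Cdk6*, *Ccnc* and *Bax* also lost the call without P-SSC replicate 1 (adjusted p = 0.0666, 0.0982 and 0.113), *Ccnc* and *E2f7* without P-SSC replicate 2 (0.0664 and 0.0809), and *Bax* without P-SSC replicate 3 (0.0755). Without graft P-SSC replicate 2 the calls of *Ccnc*, *E2f7* and *Bax* were lost (0.103, 0.0502 and 0.131), and that of *Bax* also without BM-MSC replicate 2 (0.0523) or replicate 3 (0.0528). Against BM-MSCs, the calls of *Cdkn2c* in P-SSCs and of *E2f2* and *Mcm5* in graft P-SSCs were lost under 11, 12 and 11 of 18. The calls of *Cdkn2c*, *Fzr1*, *Tfdp1*, *Foxm1*, *Id3*, *Mcm5*, *Mcm6* and *Cdt1* between graft P-SSCs and P-SSCs held under all 18.

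**Figure D4:**
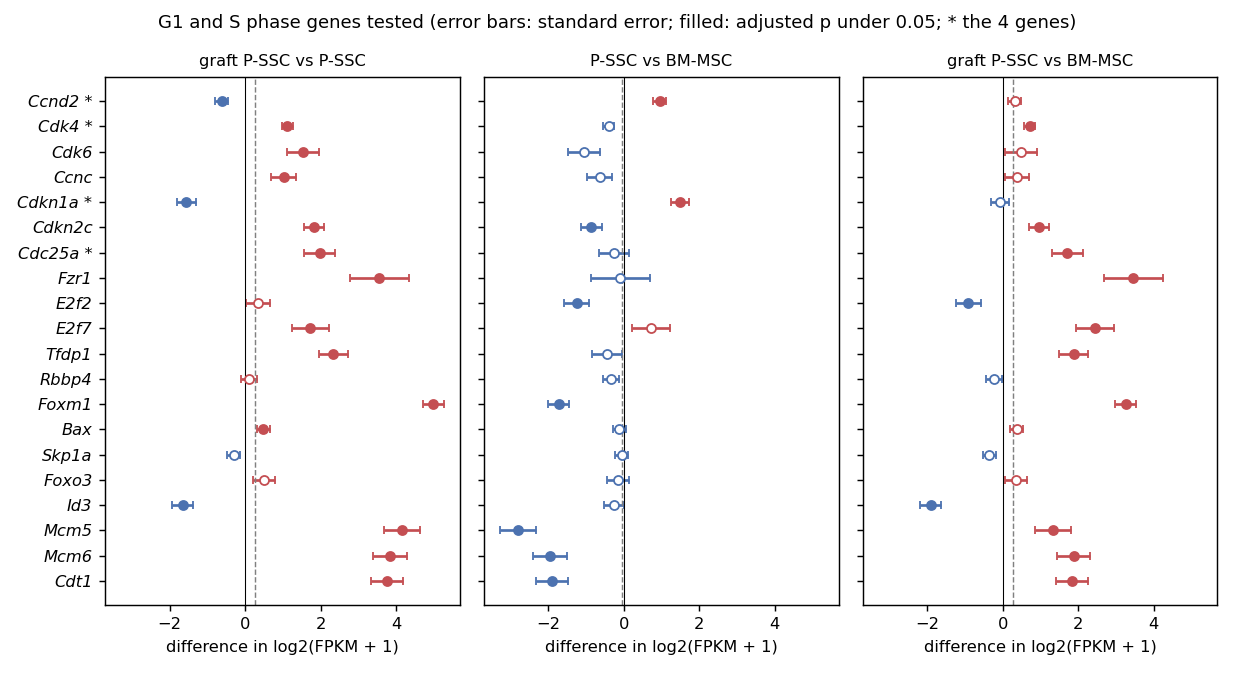
Differences in log2(FPKM + 1) with standard errors for the 20 tested genes of the G1 and S phase lists in the 3 comparisons (filled points, limma adjusted p under 0.05; red, higher in the first group; blue, lower; dashed line, median of all genes tested; asterisks, the 4 genes of interest). In graft P-SSCs against P-SSCs 11 of the 16 other genes were higher and 1, *Id3*, was lower, where 22.6% of all genes tested were higher and 11.5% lower.

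Over the 9 libraries the 4 genes fell into a pair that was high in P-SSCs and a pair that was high in graft P-SSCs. Pearson's r of log2(FPKM + 1) was 0.84 between *Cdkn1a* and *Ccnd2* and 0.79 between *Cdk4* and *Cdc25a*. Across the pairs it lay between -0.68 for *Cdkn1a* with *Cdk4* and -0.28 for *Ccnd2* with *Cdc25a*. These values describe 9 points that fall into 3 groups and share library and depth.

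The genes with the most similar pattern were sought among 923 others (924 for *Cdc25a*) with a mean of at least 10 FPKM. For *Cdkn1a* they were *Scd1*, *C3* and *Fxyd6* (r = 0.97, 0.96 and 0.96 over 9 libraries). *C3*, the central complement component, had group means of 410.1, 3327 and 367.1 FPKM in BM-MSCs, P-SSCs and graft P-SSCs. For *Ccnd2* they were *Fgl2*, *Tnxb* and *Sfxn3* (r = 0.96, 0.94 and 0.94), and *Tnxb*, which encodes the matrix protein tenascin X, had means of 0.00164, 47.4 and 4.22 FPKM. For *Cdk4* they were *Cks2*, *Gsto1* and *Fabp5*, each with r = 0.98. *Cks2*, a small protein that binds CDKs, had means of 14.6, 3.08 and 57.9 FPKM. For *Cdc25a* they were *Ranbp1*, *Ptx3* and *Tfdp1* (r = 0.98, 0.98 and 0.97). *Tfdp1* shared with *Cdc25a* the order of its P-SSC libraries, with 8.15, 13.9 and 26.9 FPKM in replicates 1, 2 and 3, and had means of 21.1, 16.3 and 78.2 FPKM in BM-MSCs, P-SSCs and graft P-SSCs.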

How the data were processed

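RNA-seq of 9 libraries was analysed. The submitters' processing notes name CASAVA, fastp, STAR 2.6.1d and featureCounts 1.5.0-p3 with GRCm38. The deposited values are FPKM, which the authors made per gene and library without pooling libraries, and the strand setting was not given in the sources used here. Poly-A RNA was used. The table also gives a gene length. Multiplied by the mean transcript length (GENCODE M21) and the library total, 94.7% of 22664 values above 0 came out as whole fragments (tolerance 0.01), for all 9 values in 3442 of 3609 genes.

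Values were used as log2(FPKM + 1) for the 1948 genes with at least 1 FPKM in at least 3 libraries, and the 3 groups were compared with limma 3.58.1 in R 4.3.3 (eBayes with a trend, all 9 libraries in 1 fit) with Benjamini-Hochberg adjustment and a threshold of 0.05. Procedures were tested on simulated data. Ratios used the exact two-sided permutation test (scipy 1.17.1). p-values measure the spread between libraries of different mice. Intervals of fragments cover counting error only.

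The 4 genes, the gene lists and the motifs were chosen with earlier results of these data known. Besides the 4 genes, list genes that passed the filter and, for each of the 4, the 3 genes with the highest r were named. Markers were named beside results. Same-numbered libraries did not deviate together (mean r -0.26 between P-SSCs and graft P-SSCs, 0.02 between BM-MSCs and P-SSCs and -0.01 between BM-MSCs and graft P-SSCs), so no block was used. Alternatives changed the pseudocount, filter, scaling, libraries, trend and block.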

Additional observations from a re-analysis of the deposited data

How the results depend on the processing

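Of 12 results of the 4 genes, 7 kept their direction and their side of the threshold under all 18 alternatives. Of 216 values in all, 208 did so, 4 lost and 1 gained the call, and 3 changed sign. Median-of-ratios scaling lowered the difference of *Cdk4* between graft P-SSCs and BM-MSCs to 0.47 (adjusted p = 0.0858 from limma). With 1 library left out at a time, *Ccnd2* between graft P-SSCs and P-SSCs ranged from -0.73 to -0.54 on the log2 scale and *Cdk4* between P-SSCs and BM-MSCs from -0.48 to -0.30. Among values that were not called, *Cdc25a* between P-SSCs and BM-MSCs ranged from -0.70 to 0.081, turning positive without P-SSC replicate 1, and *Cdkn1a* between graft P-SSCs and BM-MSCs from -0.22 to 0.065, turning positive without BM-MSC replicate 3 or graft P-SSC replicate 2 (0.0054). The cause was not tested. Leaving out 1 library gave 450 to 892 genes called between graft P-SSCs and P-SSCs, the most without P-SSC replicate 3.

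With the replicate block, 621 genes were called between graft P-SSCs and P-SSCs, 441 between P-SSCs and BM-MSCs and 755 between graft P-SSCs and BM-MSCs, and no call of the 4 genes changed. The replicate numbers were not stated to pair mice. Limma-voom on the recovered fragments, chosen after seeing the data, called 628, 428 and 744 of 1831 genes and changed no call of the 4. Of 28 results of other list genes, 10 lost the call under at least 1 alternative. Scaling to *Actb* and *Gapdh* was not run, since these genes were not in the table used here. Depth was lowest for *Cdc25a*, whose 21 fragments in P-SSC replicate 1 allow a true count down to 13.0 (exact Poisson interval, 95%).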

Other observations

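The length by which a gene is divided cancels in FPKM ratios between groups but sets the comparisons between genes. It does enter the log2 differences and calls, through the added 1 FPKM and the filter. By the listed gene length *Cdc25a* would stand at 0.132, 0.281 and 0.826 in P-SSCs and at 1.99, 2.67 and 1.58 in graft P-SSCs. Its log2 difference after the addition of 1 would then be smaller. The groups were not compared with other lengths. The deposited FPKM used the mean length of the annotated transcripts, which is 1409 bases for *Cdkn1a*, 1072 for *Cdk4*, 1638 for *Ccnd2* and 1798 for *Cdc25a*, whereas the gene length listed in the same table is 3553, 3249, 9409 and 8023 bases. Divided by the listed gene length, the ratio of *Cdk4* to *Cdkn1a* was 0.503 to 0.853 in P-SSCs, and with the longest coding transcript it was 0.466 to 0.790. *Cdkn1a* was then above *Cdk4* in all 3 P-SSC libraries, while as deposited it was so in 2 of the 3. The ratio of *Cdk4* to *Ccnd2* in graft P-SSCs moved more, from 5.59 to 7.25 as deposited to 10.6 to 13.7 with the listed length. The order of the groups in these ratios does not depend on the length.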
